A study of Mus musculus with 6 samples.

Results

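The mitochondrial ribosome and the mitochondrial protein import machinery were followed in the epididymal fat pad, a visceral white adipose depot, of fed and fasted mice. All 6 mice were wild-type male C57BL/6J animals aged 16 weeks. Of these, 3 had free access to food and 3 were deprived of food for 24 h before the fat was taken for bulk RNA sequencing. Genes were selected by symbol alone, in the GRCm38 annotation: Mrpl or Mrps followed by a digit for the large and small subunit of the mitochondrial ribosome, and Timm or Tomm followed by a digit for the translocases of the inner and outer mitochondrial membrane. This took 25 of the 3162 genes in the deposited tables, namely 15 Mrpl, 7 Mrps, 1 Timm and 2 Tomm genes. The annotation has 103 protein-coding genes with such symbols, so 24.3% of them were held, against 14.4% of all protein-coding genes. The other members, among them Timm23, Tomm22 and Tomm40, were not analysed here.

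The mitochondrial ribosome translates a small set of messages encoded in mitochondrial DNA, all of them for membrane subunits of the respiratory chain and ATP synthase. Its own proteins are encoded in the nucleus, made on cytosolic ribosomes and imported. Some have counterparts in the bacterial ribosome and others are found only in mitochondria. Import runs through the TOM complex of the outer membrane, where Tomm20 recognises targeting sequences and Tomm40 forms the channel, and then through separate inner membrane translocases for matrix proteins and for carrier proteins. White adipocytes use their mitochondria for fatty acid oxidation and also for supplying citrate and glycerol precursors to lipid synthesis.

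Expression is given as FPKM, sequenced fragments scaled to transcript length and to the mapped total, a unit in which levels of different genes can be compared. Depth per library is unknown. Summed FPKM over the genes held ranged from 190382 to 209201 in fed and from 180058 to 188061 in fasted libraries, with fed replicate 2 the highest. The tables hold a set of genes selected, by an unstated rule, for a difference between the very libraries compared. Fed values lay wholly above or wholly below fasted values in 93.4% of all 3162 genes, and in 25 of the 25 members. Of 13 listed adipocyte markers 5 were held and all 5 were lower in fasting (summed 5910 to 7076 FPKM in fed and 3260 to 3825 FPKM in fasted libraries, none at 0). The 3 of 8 endothelial markers held were all higher (123 to 140 against 199 to 261 FPKM), as were the 4 of 5 smooth muscle markers held (39.3 to 91.6 against 107 to 194 FPKM). The single macrophage marker held of 10, Itgam, was lower (4.55 to 8.38 against 2.12 to 3.86 FPKM). Of the 3 of 8 fibroblast or progenitor markers held, 1 was higher and 2 were lower (482 to 527 against 374 to 490 FPKM). The brown or beige adipocyte markers held, Ppara and Dio2, summed to 1.1 to 2.52 against 2.68 to 2.83 FPKM, and the lymphocyte marker held, Cd3e, had 0.15 to 0.23 against 0.89 to 0.98 FPKM. The part of these shifts in the results below was not tested. In bulk tissue, fewer cells of a type and less RNA per cell cannot be told apart.

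Most of the members held were lower in fasted fat. Of the 25 members, all of which passed the filter of a mean of at least 1 FPKM, 20 fell, 2 rose and 3 did not pass the test (limma on log2(FPKM + 1), Benjamini-Hochberg adjusted over 2999 genes). Among all genes tested, 49.4% were called lower, 41.1% higher and 90.5% in either direction. The members' median log2 fold change was -0.43, beside -0.34 over all genes tested, and 19 of the 25 lay below that overall median. The falls were shallow: the 23 negative changes ran from -1.00 to -0.23, a band that holds 45.6% of all genes tested. Its upper end is close to the edge of what was held, because 99% of the falling genes tested had a log2 ratio of means under -0.21, and the shallowest member was at -0.24. Of the rising genes 99% had a ratio above 0.45, so members that changed less than these limits were unlikely to be among the genes held. The limit was smaller in size for falls than for rises, so small falls could be held where equal rises rarely were. This may tilt the counts toward falls, for the members and for all genes held, which was not tested.

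The count of falls depended on how libraries were scaled. With median-ratio scaling 8 members fell and 2 rose, beside 26.2% lower and 41.3% higher of all genes tested. With quantile scaling 12 fell and 2 rose, beside 38.9% and 40.2%. Both scalings were estimated from the genes held alone, nearly all of which differed between the groups. Which scaling is nearer to the tissue's true change therefore cannot be told here. Median-ratio scaling moved the median of all genes to -0.15 and that of the members to -0.22, and quantile scaling moved them to -0.21 and -0.24. Relative to the overall median, 18 members lay below it with the first and 17 with the second. When genes not held were given the largest possible p, 4 members fell and 1 rose over all protein-coding genes (16.5% and 18.6% of genes tested), and 0 passed over all annotated genes (limma; 6.4% lower and 5.74% higher of genes tested), though 22 passed over the genes tested.

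Among the members, 9 passed the test under each of the 11 alternatives of scaling, filter, pseudocount, variance model and left-out library. These were 7 that fell, Mrpl12, Mrpl34, Mrpl49, Mrps6, Mrps11, Mrps22 and Tomm40l, and the 2 that rose, Mrps9 and Tomm20. They are described first within each class. The share of all genes tested that passed under each of the 11 alternatives is not given here, so the count does not set the members apart. In 9 members (Mrpl10, Mrpl12, Mrpl18, Mrpl19, Mrpl49, Mrps6, Mrps7, Mrps11 and Tomm40l) an exon of another annotated gene overlaps, and since the values carry no strand information their reads may be shared.

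**Figure D1:**
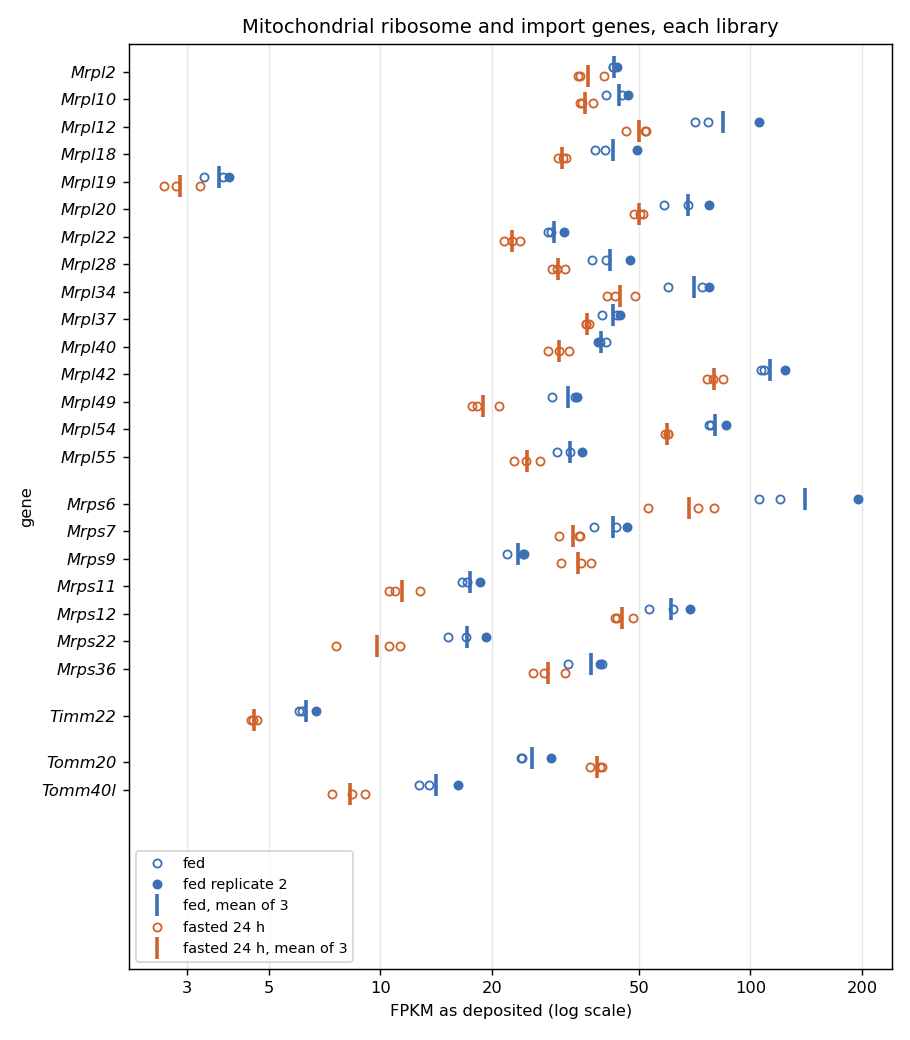
Expression of the 25 members in each library, in FPKM as deposited on a logarithmic axis; open and filled circles are libraries, vertical strokes are means of 3, and fed replicate 2 is filled. Fed circles (blue) lie to the right of fasted circles (orange) in every row other than Mrps9 and Tomm20, and fed replicate 2 has the top fed value in 23 of 25 genes.

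Most large subunit genes held fell in the deposited scaling. Of 15 Mrpl genes, 12 fell, 0 rose and Mrpl2, Mrpl19 and Mrpl37 did not pass, beside 49.4% lower and 41.1% higher of all genes tested. The median change was -0.43. With median-ratio scaling 4 fell (median -0.22), which is near the 26.2% lower of all genes tested. With quantile scaling 7 fell (median -0.24), beside 38.9% lower of all genes tested. Summed over the 15 genes, expression was 728, 844 and 730 FPKM in fed mice and 561, 549 and 550 FPKM in fasted mice. The fasted sum was thus 0.721 of the fed sum. The SD was 6.51 over the fasted and 66.3 over the fed libraries. The fed SD came largely from fed replicate 2 (844 FPKM), as the other fed sums were 728 and 730 FPKM. The 9 genes with a bacterial counterpart and the 6 mitochondria-specific ones had similar medians, -0.43 and -0.40, with 7 and 5 falls, and the difference between them was not tested.

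Mrpl49, a mitochondria-specific protein, changed most in this subunit. Its fed values were 29.0, 34.0 and 33.5 FPKM and its fasted values 17.7, 18.3 and 21.0 FPKM. The groups were 8.06 FPKM apart, and the log2 fold change was -0.73 ± 0.13 (SE; limma adjusted p = 0.00312). It was -0.53 with median-ratio scaling (adjusted p = 0.00665 by limma). The gene (ENSMUSG00000007338) spans 6053622 to 6057785 of chromosome 19 (minus strand, GRCm38), and its start faces that of Fau, 59 bases away on the other strand. Fau encodes a ubiquitin-like protein fused to a protein of the cytosolic small ribosomal subunit. Fau went the other way, from 538, 597 and 601 FPKM in fed to 1075, 887 and 752 FPKM in fasted tissue, which is a change of 0.63 ± 0.16 (limma adjusted p = 0.00929). Within each library, Fau over Mrpl49 was 18.5, 17.5 and 17.9 in fed and 60.8, 48.5 and 35.9 in fasted mice, a ratio that does not change when a library is multiplied by 1 factor. The fed ratios were nearly equal and the fasted ratios were all higher and more scattered. That they were all higher had to follow from opposite changes with groups apart. Mrpl49 also overlaps an exon of Syvn1 on the opposite strand, a gene that was not analysed here. The 58 bases between the annotated starts of the pair, chr19:6057786-6057843 on the minus strand (RefSeq promoter table, GRCm38.p6), are shown because they separate a gene that fell from one that rose. They are 70.7% G or C, and no searched motif lies in them, so no letters are in capitals.
Mrpl49 and Fau: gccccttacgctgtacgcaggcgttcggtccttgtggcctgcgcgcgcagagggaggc

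Mrpl12, the protein of the flexible stalk that recruits translation factors, had 76.7, 105 and 70.7 FPKM in fed and 52.4, 51.8 and 46.0 FPKM in fasted tissue. The change was -0.72 ± 0.17 (limma adjusted p = 0.00716) and -0.55 without fed replicate 2, which alone exceeded 100 FPKM. Its stalk partner Mrpl10 moved less, from 40.7, 46.6 and 45.0 to 35.1, 34.7 and 37.7 FPKM. The call for Mrpl10 (-0.29 ± 0.11, limma adjusted p = 0.0388) did not hold under median-ratio scaling (adjusted p = 0.449) nor when fasted replicate 1, fasted replicate 2, fed replicate 2 or fed replicate 3 was left out (0.081 to 0.114). Mrpl34, a small conserved protein of the subunit, had 59.8, 77.3 and 73.9 FPKM in fed and 48.9, 41.1 and 43.0 FPKM in fasted tissue. Its change was -0.65 ± 0.14 (limma adjusted p = 0.00602), and its lowest fed value exceeded its highest fasted value by 10.9 FPKM.

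Of the other large subunit genes, Mrpl42 had the highest level, with 109, 124 and 107 FPKM in fed and 76.4, 79.2 and 84.2 FPKM in fasted tissue (-0.49 ± 0.12). Mrpl54 had 78.2, 85.7 and 77.3 FPKM in fed and 59.9, 58.8 and 60.0 FPKM in fasted mice (-0.43 ± 0.11). The groups of these mitochondria-specific genes were separated by 22.5 and 17.3 FPKM, and both passed (limma adjusted p = 0.00749 and 0.00914). With quantile scaling neither passed (limma adjusted p = 0.0754 and 0.0914), nor did Mrpl54 with median-ratio scaling (0.0733). The remaining genes that fell did so by -0.37 to -0.45 on the log2 scale. They were Mrpl22, whose bacterial counterpart lines the exit tunnel (-0.37 ± 0.11), Mrpl18 (-0.44 ± 0.13), Mrpl20 (-0.43 ± 0.13), Mrpl28 (-0.45 ± 0.13) and the mitochondria-specific Mrpl40 (-0.37 ± 0.11) and Mrpl55 (-0.37 ± 0.12). With median-ratio scaling none of these 6 passed (limma adjusted p from 0.0728 to 0.218). Mrpl20 did not pass without fasted replicate 2 (limma adjusted p = 0.0562), nor Mrpl55 without fed replicate 1 (0.0515), fed replicate 2 (0.0587) or fasted replicate 1 (0.0623). Exons of Mrpl18 overlap those of the chaperonin gene Tcp1 on the other strand.

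The 3 large subunit genes that did not pass had intervals reaching past 0. Mrpl2, whose bacterial counterpart lies near the catalytic centre, had 42.5, 43.7 and 42.6 FPKM in fed and 40.1, 34.1 and 34.7 FPKM in fasted tissue (95% interval of the log2 change -0.51 to 0.03). It passed without fasted replicate 1 (limma adjusted p = 0.0471). Mrpl37 had 43.6, 44.5 and 39.7 FPKM in fed and 35.9, 36.7 and 35.9 FPKM in fasted tissue (-0.48 to 0.02). Mrpl19 was the lowest of all 25 members, with 3.75, 3.90 and 3.34 FPKM in fed and 3.25, 2.80 and 2.60 FPKM in fasted mice (-0.60 to 0.07). Its longest coding transcript has 5000 bases, against a median of 1068 over the Mrpl genes. Its 3' neighbour on the opposite strand, Gcfc2, overlaps its exons and rose (0.65 ± 0.22, limma adjusted p = 0.0253), with 1.23 to 1.74 FPKM in fed and 2.29 to 4.32 FPKM in fasted libraries.

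**Figure D2:**
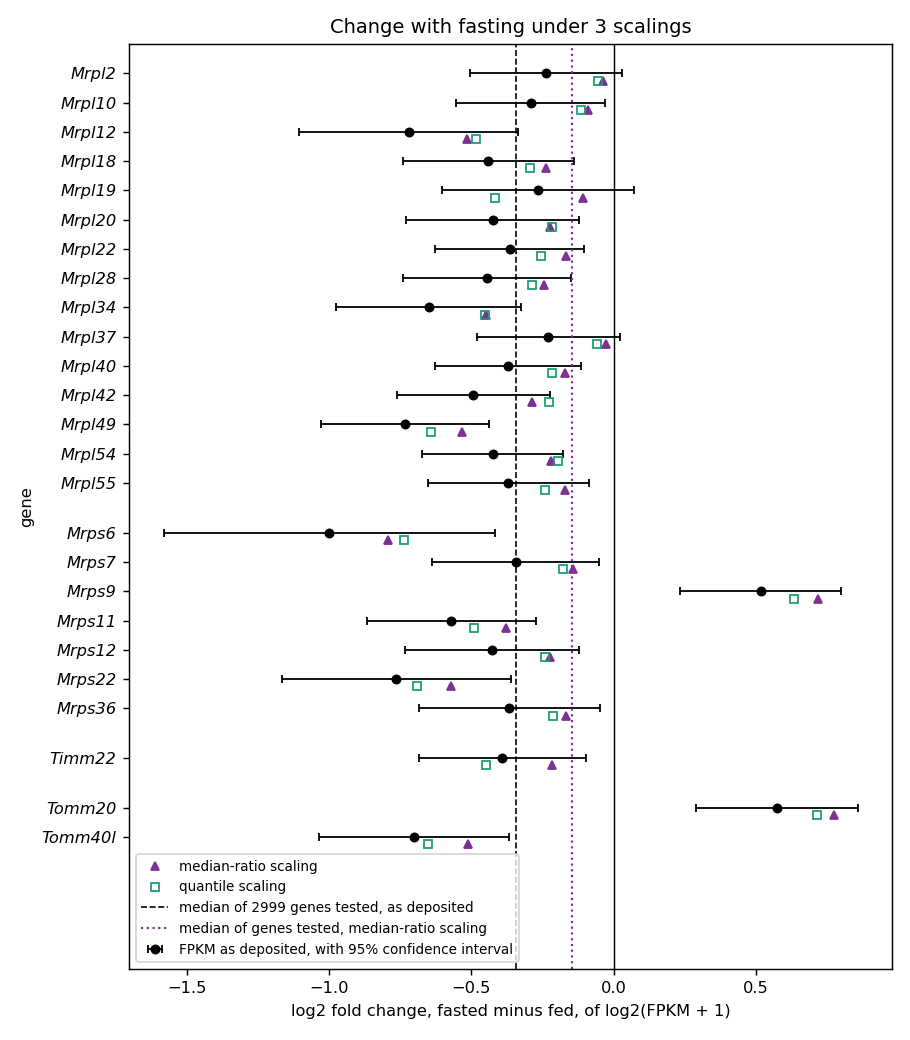
Log2 fold change (fasted minus fed, of log2(FPKM + 1)) of each member, with 95% confidence intervals as black bars and the values under 2 other scalings as triangles and squares; the dashed line is the median of all genes tested (-0.34). Mrps9 and Tomm20 lie right of 0 under all 3 scalings, and most other members shift toward 0 with median-ratio scaling.

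The small subunit held the widest range of changes. Of 7 Mrps genes, 6 fell and 1, Mrps9, rose (median -0.43), beside 49.4% lower and 41.1% higher of all genes tested. With either other scaling 3 fell, beside 26.2% lower of all genes tested with median-ratio and 38.9% with quantile scaling. Without fasted replicate 2 the count was also 3, beside 34.8% lower of all genes tested. The summed level was 285, 411 and 321 FPKM in fed and 245, 213 and 232 FPKM in fasted mice. The high sum of fed replicate 2 came largely from Mrps6.

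Mrps6, a protein with a bacterial counterpart, had the highest fed level and the deepest fall of all 25 members. It had 105, 195 and 121 FPKM in fed and 79.5, 52.9 and 72.0 FPKM in fasted tissue. Fed replicate 2 stood far above the other fed mice, yet the lowest fed value still exceeded the highest fasted one by 25.8 FPKM. The log2 fold change was -1.00 ± 0.25 (limma adjusted p = 0.00925), -0.79 with median-ratio scaling, and -0.74 when fed replicate 2 was left out. Mrps6 (ENSMUSG00000039680, plus strand of chromosome 16, 92058270 to 92112227) shares exons on the same strand with Slc5a3, which encodes a sodium-coupled inositol transporter and starts 52 bases from it. Reads from the shared part cannot be assigned with certainty to either gene. Slc5a3 had 5.16, 10.7 and 5.36 FPKM in fed and 2.45, 1.13 and 1.86 FPKM in fasted mice (-1.48 ± 0.29, limma adjusted p = 0.00463). As for Mrps6, fed replicate 2 was the highest and fasted replicate 2 the lowest library. Within each library Slc5a3 over Mrps6 was 0.0490, 0.0549 and 0.0445 in fed and 0.0308, 0.0214 and 0.0258 in fasted mice, so Slc5a3 was lower relative to Mrps6 in each fasted library.

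Mrps22, a mitochondria-specific protein, had 17.1, 19.3 and 15.2 FPKM in fed and 7.57, 11.3 and 10.5 FPKM in fasted mice. Its change was -0.76 ± 0.17 (limma adjusted p = 0.00692). Mrps11, whose bacterial counterpart sits on the platform of the subunit, had 17.1, 18.6 and 16.6 FPKM in fed and 10.6, 11.0 and 12.8 FPKM in fasted mice (-0.57 ± 0.13, limma adjusted p = 0.00666). It overlaps exons of Mrpl46 on the opposite strand, a large subunit gene that was not analysed here. Mrps12, the counterpart of the bacterial decoding-centre protein, had 53.1, 68.6 and 61.7 FPKM in fed and 48.3, 43.1 and 43.7 FPKM in fasted tissue (-0.43 ± 0.13). It passed over all 6 libraries (limma adjusted p = 0.0176) but not without fasted replicate 2 (0.0573) or with median-ratio scaling (0.106). It starts 172 bases from Sars2, the mitochondrial seryl-tRNA synthetase gene on the other strand, which also fell, from 8.39, 7.88 and 6.52 to 5.68, 4.11 and 4.06 FPKM (-0.62 ± 0.17, limma adjusted p = 0.0118). The ratio of Sars2 to Mrps12 overlapped between the groups, at 0.106 to 0.158 in fed and 0.0929 to 0.118 in fasted libraries.

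Mrps7, a protein of the subunit's head, had 37.7, 46.3 and 43.3 FPKM in fed and 30.4, 34.4 and 34.6 FPKM in fasted mice (-0.34 ± 0.13). Mrps36 had 32.2, 39.1 and 39.7 FPKM in fed and 31.7, 25.9 and 27.7 FPKM in fasted mice (-0.37 ± 0.14). Although named as a ribosomal protein, Mrps36 is known as a subunit of the oxoglutarate dehydrogenase complex, and the annotation has 3 pseudogenes named after it. These were the weakest calls of the class (limma adjusted p = 0.0326 and 0.0342). Neither passed with another scaling, without fed replicate 2 or 3, or without fasted replicate 2. Mrps7 also did not pass without fasted replicate 1, nor Mrps36 without fasted replicate 3 (limma adjusted p from 0.0636 to 0.114 over these libraries).

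Mrps9 was the only ribosomal member that rose. Its bacterial counterpart has a tail that reaches the bound transfer RNA. It had 22.1, 24.4 and 24.3 FPKM in fed and 37.0, 34.9 and 30.8 FPKM in fasted tissue, 1.45 times the fed mean. The log2 fold change was 0.52 ± 0.12 (limma adjusted p = 0.00764). It was 0.72 with median-ratio scaling and 0.46 to 0.59 when single libraries were left out. Within each library Mrps9 over Mrps22 was 1.29, 1.26 and 1.60 in fed and 4.89, 3.09 and 2.92 in fasted mice. The transcript levels of these 2 small subunit genes were therefore less even in fasted than in fed fat, whichever single factor multiplies a library. The pair was chosen with its results known. As 1 gene rose and the other fell, each with groups apart, the ratios had to separate and add no support. The gene (ENSMUSG00000060679) spans 42851233 to 42905683 of chromosome 1 (plus strand), and no annotated exon of another gene overlaps its exons.

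The ratio of the Mrpl sum to the Mrps sum overlapped between the groups with Mrps6 included and not without it. The sums cover the genes held only, 15 Mrpl and 7 Mrps genes, with Mrps36 among the latter. Mrpl over Mrps sums were 2.56, 2.05 and 2.27 in fed and 2.29, 2.57 and 2.37 in fasted libraries, and the groups overlapped. Without Mrps6 the ratios were 4.06, 3.90 and 3.64 in fed and 3.39, 3.42 and 3.43 in fasted libraries, and they no longer overlapped. Mrps6 was left out after its values had been seen, so this is a description of how far 1 gene sets the ratio.

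Among the import genes, 2 fell and 1 rose, beside 49.4% lower and 41.1% higher of all genes tested. Timm22, the channel of the inner membrane translocase for carrier proteins, had 6.13, 6.71 and 6.02 FPKM in fed and 4.65, 4.47 and 4.54 FPKM in fasted tissue. The groups were 1.37 FPKM apart, and the log2 fold change was -0.39 ± 0.13 (limma adjusted p = 0.021). This call did not hold under median-ratio scaling (adjusted p = 0.127 by limma) and without fed replicate 2 (0.0536) or fasted replicate 2 (0.0683).

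The outer membrane genes went in opposite directions. Tomm20, the receptor for targeting sequences, had 23.9, 28.9 and 24.2 FPKM in fed and 39.8, 36.8 and 39.1 FPKM in fasted mice. This was the largest rise of the 25 members, with a fasted mean 1.50 times the fed mean and a change of 0.57 ± 0.12 on the log2 scale (limma adjusted p = 0.00582). Tomm40l, a paralogue of the channel protein Tomm40, had 13.6, 16.2 and 12.7 FPKM in fed and 9.11, 8.41 and 7.40 FPKM in fasted mice (-0.70 ± 0.14, limma adjusted p = 0.00527). With median-ratio scaling the changes were 0.78 and -0.51. Tomm20 over Tomm40l was 1.77, 1.78 and 1.90 in fed mice and 4.37, 4.38 and 5.29 in fasted mice. These ratios had to separate, because the genes changed in opposite directions with groups apart. Over protein-coding genes both passed the stricter adjustment (limma adjusted p = 0.0426 and 0.0386), as did Mrpl34, Mrpl49 and Mrps11 (0.0441, 0.0228 and 0.0488). Tomm20 spans 126930667 to 126945844 of chromosome 8 (minus strand). Tomm40l spans 171216011 to 171222514 of chromosome 1 (minus strand), where its exons overlap those of the nuclear receptor gene Nr1i3 on the other strand.

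**Figure D3:**
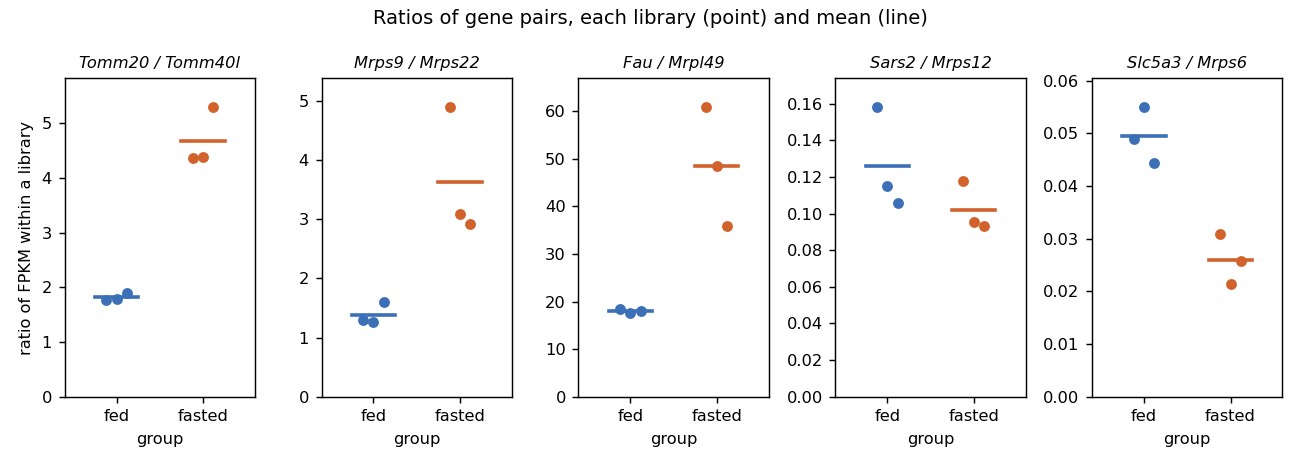
Ratio of FPKM of 2 genes within each library (points) and group mean (line) for 5 pairs, on axes starting at 0. Fed and fasted points are apart for Tomm20 over Tomm40l, Mrps9 over Mrps22, Fau over Mrpl49 and Slc5a3 over Mrps6, and overlap for Sars2 over Mrps12. Where a gene that rose is set over one that fell, each with groups apart, the ratios had to separate.

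The spread between mice was smaller for these genes than over all genes tested. The median coefficient of variation of the members was 8.49% in fed and 7.04% in fasted mice, against 13.8% and 14.0% over all genes tested. The members were also more highly expressed, with a median level of 36.0 FPKM against 15.1 FPKM over all genes held. Spread was not compared at matched levels. For 23 of 25 members fed replicate 2 had the top fed value, the exceptions being Mrpl40 and Mrps36. Its median ratio to the other fed libraries was 1.12 for the members and 1.05 over all genes tested. Without it 15 members fell and 2 rose (37.1% lower and 38.8% higher of genes tested), and without fasted replicate 2 the counts were 14 and 2 (34.8% and 37.9%).

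Promoters were compared because nuclear genes of mitochondria share several known transcription factors, among them NRF1, the ETS factor GABPA, YY1 and the oestrogen-related receptors. RefSeq windows from 250 bases before to 50 after the start (GRCm38.p6) were found for 22 of the 25 members, and not for Mrpl19, Mrpl54 and Tomm40l. Each motif was searched on both strands. The NRF1 motif, with the letters shown in capitals below and any base at the fifth position, was in 3 of 22 members (13.6%), 9.55% of the genes held with a window and 5.19% of all 27025 genes with one. The ETS letters CCGGAAG were in 5 members (22.7%), against 15.5% and 9.93%. The YY1 motif of 11 letters around ATGGC was in 2 members (9.09%), against 1.59% and 0.755%, the letters CACGTG of E-boxes in 4 (18.2%), against 11.9% and 8.09%, and the oestrogen-related receptor letters AAGGTCA in 1 (4.55%), against 4.2% and 5.38%. These shares rest on 1 to 5 genes each and are descriptions.

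The 3 members with the NRF1 motif were Mrps9 and Tomm20, the members that rose, and Mrpl12, which fell. Distances are from RefSeq starts, which for Tomm20 and Mrpl12 differ from the gene starts in the GRCm38 annotation used for the spans. The motif began 5 bases before the RefSeq start in Mrps9, 20 before it in Tomm20 and 81 before it in Mrpl12. The matches and flanks are shown 5′ to 3′ on each gene's own strand, with the matched letters in capitals, because it is the only searched motif that both rising members held. The windows are chr1:42851178-42851247 (plus) for Mrps9, chr8:126945922-126945991 (minus) for Tomm20 and chr11:120484506-120484575 (plus) for Mrpl12.
Mrps9: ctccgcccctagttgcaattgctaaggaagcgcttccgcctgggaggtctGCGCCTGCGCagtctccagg
Tomm20: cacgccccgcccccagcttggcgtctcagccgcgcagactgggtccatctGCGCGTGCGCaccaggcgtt
Mrpl12: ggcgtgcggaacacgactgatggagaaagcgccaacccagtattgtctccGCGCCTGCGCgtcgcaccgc

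The ETS letters were in Mrpl18, Mrpl22, Mrpl34, Mrps12 and Mrps22, each of which fell, as did 20 of all 25 members. With median-ratio scaling Mrpl18, Mrpl22 and Mrps12 did not pass (limma adjusted p = 0.0848, 0.181 and 0.106). The E-box letters were in Mrpl20, which fell, Tomm20, which rose, and Mrpl2 and Mrpl37, which did not pass. The YY1 letters were in Mrps11, which fell, and Mrpl37. In all, 12 of the 22 windows held at least 1 searched motif, and median GC content of the members' windows was 58.7%, beside 60.7% in the genes held and 52.7% in all windows.

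Genes that work beside the mitochondrial ribosome were taken from lists. The subunit gene Dap3, a mitochondrial small subunit protein with another kind of symbol and the only 1 of 8 such genes held, fell (39.0, 46.0 and 45.0 against 32.4, 31.6 and 31.8 FPKM, -0.43 ± 0.12; it did not pass with median-ratio or quantile scaling, limma adjusted p = 0.092 and 0.0511). Of 36 translation factors and mitochondrial aminoacyl-tRNA synthetases listed, 9 were held, of which 8 fell, 0 rose and Hemk1 did not pass (median -0.52). Over all genes tested, 49.4% were called lower and 41.1% higher. Tufm, the elongation factor that delivers transfer RNA, had 56.3, 55.3 and 64.0 FPKM in fed and 33.0, 39.6 and 45.4 FPKM in fasted mice (-0.57 ± 0.15). It did not pass with median-ratio or quantile scaling (limma adjusted p = 0.0766 and 0.0569). The elongation factor gene Gfm1 (-0.48 ± 0.13), Sars2, and Qrsl1, which takes part in making glutaminyl-tRNA (-0.60 ± 0.15), fell too. Gfm1 did not pass with median-ratio scaling either (limma adjusted p = 0.0784), while Sars2 and Qrsl1 passed. With median-ratio scaling 4 of the 8 passed, and with quantile scaling 7, beside 26.2% and 38.9% lower of all genes tested. Of 30 genes of ribosome assembly and ribosomal RNA modification, 4 were held. The helicase gene Ddx28, which acts in large subunit assembly, rose (0.74 ± 0.19), the pseudouridine synthase gene Trub2 fell (-0.55 ± 0.21), and Rpusd3 (-0.45 ± 0.19) and Fastk (-0.30 ± 0.13) did not pass. Trub2 did not pass with median-ratio scaling (limma adjusted p = 0.12), nor when fed replicate 2, fasted replicate 1 or fasted replicate 3 was left out.

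Of 32 listed genes for handling mitochondrial DNA and RNA, 4 were held, of which 3 rose and 1 fell. The shares over all genes tested were 41.1% higher and 49.4% lower. Hsd17b10, a dehydrogenase that is also a subunit of the mitochondrial RNase P, had 169, 117 and 153 FPKM in fed and 417, 605 and 395 FPKM in fasted mice. Its change was 1.67 ± 0.21 (limma adjusted p = 0.00121). Tfb2m, the initiation factor of mitochondrial transcription, had 22.9, 20.7 and 24.4 FPKM in fed and 38.9, 41.9 and 36.6 FPKM in fasted mice (0.76 ± 0.12, limma adjusted p = 0.00246). These were the 2 genes of all the lists that passed over all annotated genes. Twnk, the mitochondrial DNA helicase gene, rose (0.59 ± 0.16), and Pnpt1, which encodes an RNA-degrading enzyme, fell (-0.38 ± 0.12). Pnpt1 did not pass with median-ratio scaling (limma adjusted p = 0.162), nor when fed replicate 1 or fasted replicate 2 was left out.

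The 5 genes held of 40 for import, processing and folding under other symbols all fell, with a median of -0.50. Over all genes tested, 49.4% were called lower. They included the matrix chaperonin gene Hspd1 (101, 124 and 131 against 71.9, 83.2 and 95.7 FPKM, -0.50 ± 0.15), the outer membrane gene Mtx1 (-0.39 ± 0.11), Agk, a partner of the Timm22 translocase (-0.51 ± 0.13), and the inner membrane protease gene Spg7 (-0.55 ± 0.14). With median-ratio scaling 0 of the 5 passed (limma), and with quantile scaling, or without fasted replicate 2, 3 passed. The shares lower of all genes tested were then 26.2%, 38.9% and 34.8%. Of 3 MICOS genes held of 9, which shape the cristae of the inner membrane, Immt (-0.44 ± 0.14) and Apoo (-0.52 ± 0.14) fell and Minos1 (-0.24 ± 0.12) did not pass. Neither fall passed with median-ratio scaling, and Immt did not pass when fed replicate 1, fed replicate 3, fasted replicate 1 or fasted replicate 2 was left out.

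Of 21 oxidative phosphorylation genes held, 15 fell, 2 rose and 4 did not pass (median -0.35), beside 49.4% lower and 41.1% higher of all genes tested. Ndufb3 (-0.95 ± 0.16) and Cycs (-0.68 ± 0.13) fell most, and the complex I gene Ndufa6 (0.65 ± 0.12) and Cox7a2l (0.50 ± 0.11), which helps respiratory complexes associate, rose. With median-ratio scaling 3 fell and 2 rose, beside 26.2% lower and 41.3% higher of all genes tested. There were 9 falls without fed replicate 2 and 4 without fasted replicate 2, beside 37.1% and 34.8% lower of all genes tested. Of 20 listed nuclear regulators, 5 were held. Ppara (0.70 ± 0.15), Ppargc1a (0.90 ± 0.24) and Ppargc1b (0.69 ± 0.20) rose, beside 41.1% higher of all genes tested. Ppargc1a had means of 0.77 FPKM in fed and 2.33 FPKM in fasted mice, and Ppargc1b 0.61 and 1.56 FPKM. Their fed means lay under the filter of 1 FPKM, so both were tested only through their fasted values and their rises add no support. Gabpb1, a subunit of the factor that binds ETS letters, went from 7.70, 10.5 and 8.45 to 17.1, 11.7 and 9.35 FPKM with groups that overlapped (0.44 ± 0.22, limma adjusted p = 0.0842). Atf5 did not pass either (-0.38 ± 0.18). Tfam, Nrf1, Gabpa, Esrra, Myc and Hspa9 were not analysed here.

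The cytosolic ribosome stood on the other side of 0. All 50 of its protein genes held were called higher in fasting, with a median of 0.53, beside 41.1% higher of all genes tested. With median-ratio scaling the median was 0.74 with 50 rises, beside 41.3% higher of all genes tested. Examples were Rps27 (0.82 ± 0.14), Rpl37 (0.72 ± 0.13) and Rpl3 (0.59 ± 0.12). Adjusted over all protein-coding genes 8 of the 50 passed, beside 18.6% higher of all genes tested. Over all annotated genes 0 passed (limma), beside 5.74% higher. Without fasted replicate 2, 45 passed, beside 37.9% higher. Of the 21 Mrpl and Mrps genes other than Mrps36, 17 fell and 1 rose, while 7 fell and 1 rose with median-ratio scaling. The shares lower of all genes tested were 49.4% and 26.2%. Rises below 0.45 were nearly absent from the tables, so how the cytosolic genes not held behaved cannot be read from this count. The difference between the lists was not tested.

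**Figure D4:**
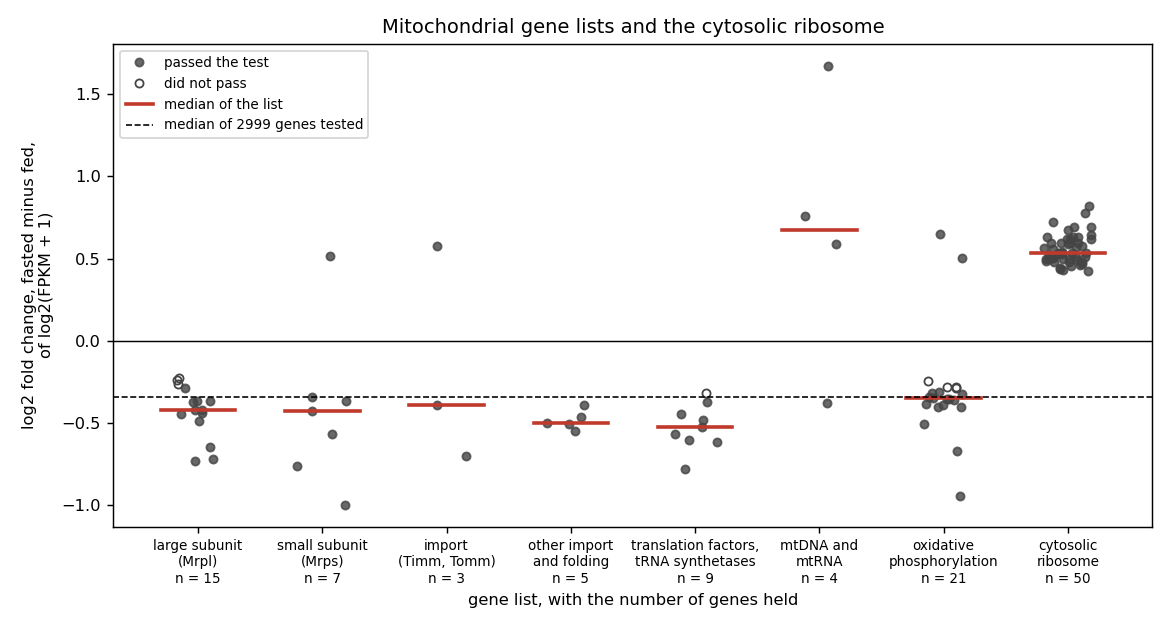
Log2 fold change (fasted minus fed, of log2(FPKM + 1)) of each gene held, by list, with filled circles for genes that passed the test, open circles for those that did not, and red lines for the median of each list. Mitochondrial ribosome, import, translation and oxidative phosphorylation genes lie mostly near or under the dashed median of all genes tested (-0.34), and the 50 cytosolic ribosome genes all lie above 0.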

How the data were processed

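RNA from weighed pieces of epididymal fat was extracted with Trizol and sequenced with standard Illumina libraries, per the labels' protocols. The values deposited by the authors are FPKM per gene, per the file headers, given to 2 decimals. RSEM and the builds mm10 and GRCm38.p6 are named in the submitters' processing notes. The version of RSEM and any aligner or annotation release: not given in the sources used here. GENCODE's GRCm38 annotation matched 3158 of 3162 gene identifiers. Groups follow the treatment label; replicates were numbered by accession, which pairs no mice. That the 3 samples of a group are separate mice is taken from the series' design text.

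Groups were compared by limma 3.58.1 (R 4.3.3; variance trend, two-sided) on log2(FPKM + 1). Genes averaging under 1 FPKM were left out, which left 2999. P-values were adjusted by the Benjamini-Hochberg method with a threshold of 0.05. Since these libraries were used to choose the genes held, this is not a genome-wide false discovery rate. Fold changes on this scale understate those of low genes. Alternatives were a pseudocount of 0.1, no filter, median-ratio and quantile scaling, no variance trend, stricter adjustments and each library left out. The members, the lists and the pairs set side by side were chosen with earlier results of these data known. All 25 members are named; of other lists, up to 4 genes with the smallest p and a set of known regulators were named, and Rpusd3, Fastk, Hemk1, Minos1, Atf5 and the neighbouring genes in addition after their values were seen, as was the grouping by bacterial counterpart.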

Additional observations from a re-analysis of the deposited data

How the results depend on the processing

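The 25 members kept their direction under all 13 alternatives, but only the 2 scalings could have reversed it. The others rescale no library, and fed and fasted values of the 25 members did not overlap, so their directions were fixed beforehand. A pseudocount of 0.1, no filter and no variance trend changed no member's call. Median-ratio scaling ended 12 of the 22 calls and quantile scaling 9, while Mrpl19 passed with quantile scaling. There were 8 falls under median-ratio scaling and 12 under quantile scaling, of which 4 and 7 were Mrpl genes and 3 and 3 were Mrps genes; Timm22 did not pass with the former (0 falls among Timm genes). The medians under the 2 scalings were -0.1458 and -0.2117 for all genes tested, -0.2212 and -0.2395 for the members and for Mrpl genes, and -0.2242 and -0.2394 for Mrps genes. Of all genes tested, 787 fell with median-ratio scaling, against 1482, and the lists beside the members had 7 falls with it and 16 with quantile scaling. Adjusted over all protein-coding genes, 557 genes rose and 495 fell. Members then had 1 rise and 4 falls, with 2 falls of Mrpl, 1 fall and 0 rises of Mrps and 0 falls of Timm genes, and the other lists had 13 rises and 2 falls. Adjusted over all annotated genes, 172 rose and 192 fell, with 0 members in either direction and 0 Mrpl, Mrps, Timm or Tomm genes, and the other lists had 2 rises and 0 falls. Leaving out single libraries gave 14 to 19 falls and 2 rises of members, 10 to 12 falls of Mrpl, 3 to 6 of Mrps, 0 to 1 of Timm and 1 of Tomm genes. All genes tested then had 1118 to 1221 rises and 1040 to 1300 falls, and the other lists 54 to 59 rises and 16 to 27 falls. The Mrpl median ranged from -0.4531 to -0.3347 with single libraries left out. No paired analysis was possible because the labels give no number shared by fed and fasted mice. Depth is unknown, so precision rests on the 3 mice per group.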
